A study of Mus musculus with 10 samples.

Results

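The Wnt ligands, their receptors and their modulators were examined in libraries labelled as hepatic stellate cells (HSCs), the vitamin A storing mesenchymal cells of the liver sinusoids, prepared from fibrotic and from healthy mouse liver. The members were chosen by gene symbol and not by their values: every numbered Wnt, Fzd, Sfrp, Dkk, Rspo and Axin gene, together with Lgr4, Lgr5, Lgr6, Lrp5, Lrp6, Ror1, Ror2, Znrf3, Rnf43, Wif1, Notum, Ctnnb1, Lef1, Tcf7, Tcf7l1 and Tcf7l2. This gave 60 of the 25233 entries that carry a symbol in a table of 62322 entries. Of the 60, 19 were Wnt ligands, 10 Frizzled receptors, 4 co-receptors, 9 genes of the R-spondin axis, 10 secreted inhibitors and 7 intracellular or nuclear genes, and Fzd10os, an antisense neighbour of Fzd10, was also taken in by the symbol rule.

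All animals were C57BL/6J males. Cells labelled as hypertrophied HSCs (hypHSCs) were sorted from mice fed CDAHFD, a choline-deficient and high-fat diet that produces steatohepatitis and fibrosis. Libraries hypHSC 1 and 2 came from mice aged 19 weeks after 13 weeks of diet, and hypHSC 3, 4 and 5 from mice aged 18 weeks after 12 weeks. Quiescent HSCs (qHSCs) were sorted from mice on a standard diet, aged 36 weeks for qHSC 1, 2 and 5 and 34 weeks for qHSC 3 and 4. Each group had 5 bulk libraries, made by oligo-dT priming from sorted cells without regard to strand, with 30534719 to 47317028 reads on genes with a symbol. Digestion of the liver, antibiotics in the buffers and the fluorescence gate of the sort also differed between the groups. Diet, age, digestion, antibiotics and gate therefore cannot be told apart.

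Wnt proteins are lipid-modified ligands that bind a Frizzled receptor together with a co-receptor. With LRP5 or LRP6 this stabilizes beta-catenin, which enters the nucleus and acts through the TCF/LEF factors, whereas ROR receptors and the planar polarity proteins carry signals that do not need beta-catenin. R-spondins, read by LGR receptors, keep Frizzled receptors on the cell surface by clearing the ubiquitin ligases ZNRF3 and RNF43, and in the liver R-spondin 3 is known for maintaining the zonation of hepatocytes around the central vein.

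The labelled cell type was checked against marker genes before the members were read. The summed level of 15 quiescent stellate cell markers, among them Lrat, which esterifies retinol, and Reln, was 712471 to 1338510 normalized counts in qHSCs and 6729 to 20318 in hypHSCs, and all 15 were called lower by the test described below. The 19 macrophage markers, such as Ptprc, Adgre1 and Csf1r, summed to 1412860 to 1931450 normalized counts in hypHSCs and 5257 to 135416 in qHSCs, where qHSC 1 with 61549 and qHSC 4 with 135416 held the most. Of the 19, 15 were called higher, 0 lower and 4 were not called, among which Timd4 went from a mean of 505 normalized counts in qHSCs to 17.8 in hypHSCs and Cd163 from 574 to 31.3. No marker of these 2 lists was at 0 in every library of a group. Libraries hypHSC 4 and 5 had the lowest stellate sums, 10380 and 6729. These markers go against the hypHSC label, and whether the sorted cells were stellate cells could not be settled from the table, so hypHSC names the libraries by their label throughout. In bulk libraries, fewer cells of a type and less RNA per cell cannot be told apart, and the part of this difference in the members' changes was not tested.

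Of the 60 members, 22 had 10 or more normalized counts in 5 or more libraries and were tested, and 10 of these had them in every library. The authors' normalized counts were compared with limma on the log2(normalized count + 1) scale, and a gene was called a differentially expressed gene (DEG) at an adjusted p of at most 0.05 with a log2 fold change of at least 1 in either direction. 9 members were DEGs, 40.9% of those tested, beside 39.5% of all 14630 genes tested. Fzd7 was higher in hypHSCs, where 17.8% of all genes were called higher. Wnt4, Rspo3, Fzd4, Fzd8, Lrp5, Axin2, Tcf7 and Tcf7l1 were lower, where 21.7% of all genes were called lower. Of these, Wnt4, Fzd4, Fzd8, Axin2, Tcf7 and Tcf7l1 passed the filter on their qHSC libraries and would not have passed on the hypHSC libraries alone. Their being tested therefore already depended on their qHSC level, whereas Rspo3 and Lrp5 passed in either group. The median log2 fold change was -1.57 over the 22 members and -0.20 over all genes tested. The -1.57 depends on the log2(normalized count + 1) scale, since several low members had hypHSC libraries at or near 0. Fzd3, Ror1 and Fzd6 had -2.13, -2.17 and -1.56 in limma but -0.79, -0.75 and -0.65 in DESeq2. Wnt4 went slightly the other way, at -4.47 and -4.56. A median over members was not computed for DESeq2. The values of the 5 hypHSC and the 5 qHSC libraries did not overlap for 9 of the 22 members, against 39.5% of all genes. With the libraries scaled on the reference genes Hprt, Pgk1 and Actb, which moved the median of all genes by -0.93 on the log2 scale, 0 members were higher and 14 lower, beside 10.1% and 47.8% of all genes under that scaling.

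**Figure D1:**
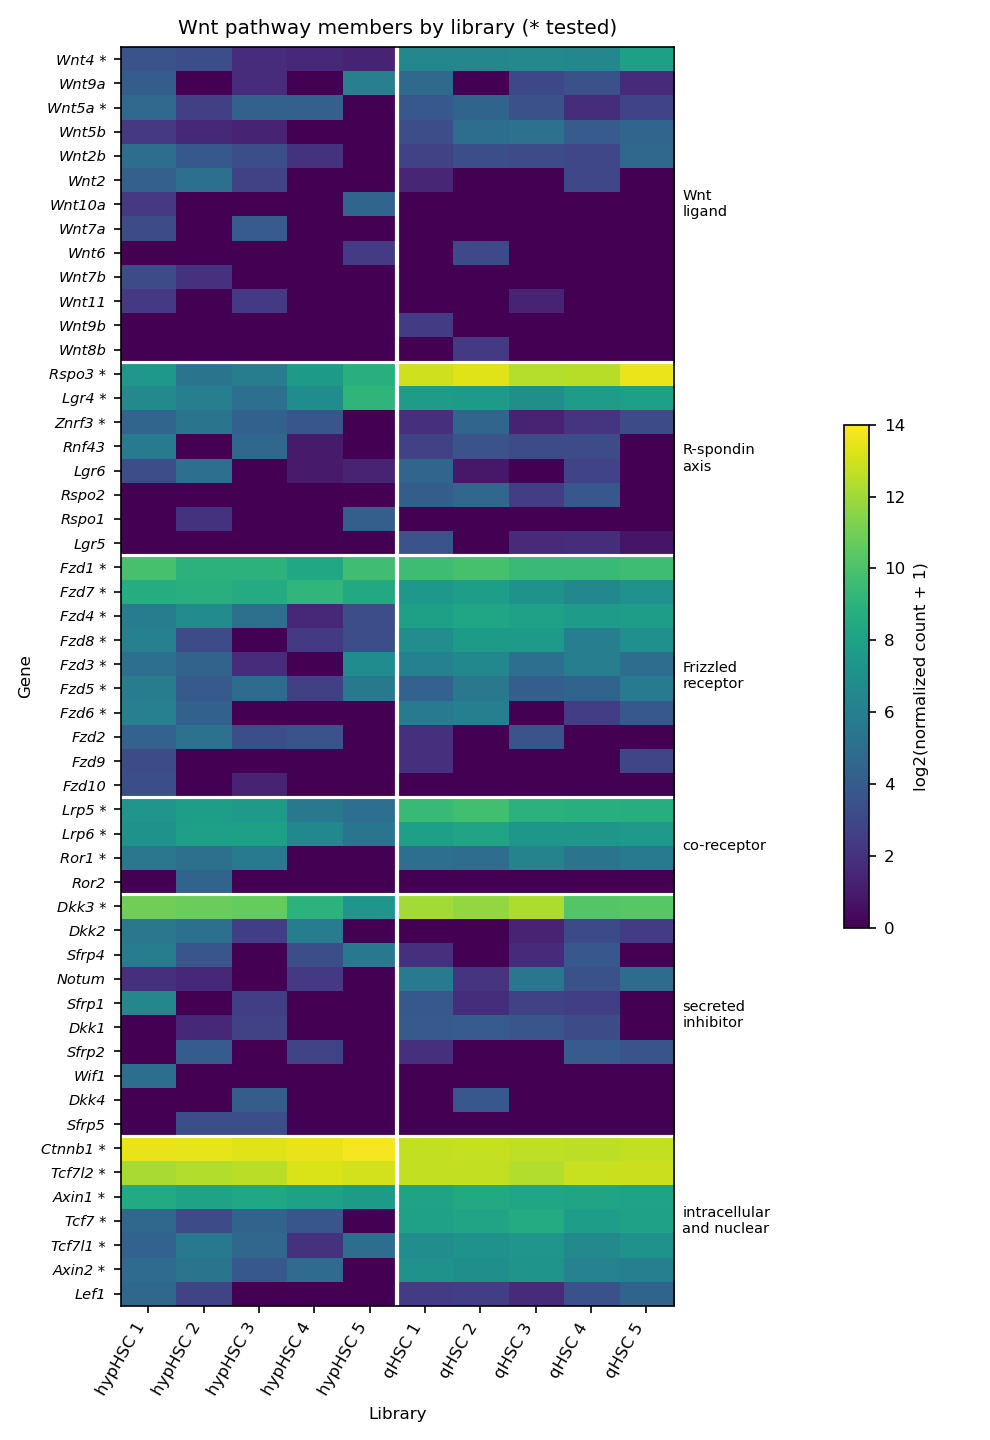
Level of each of the 52 members with a read in any library, as log2(normalized count + 1) by colour, with genes in rows by role and the 10 libraries in columns. Asterisks mark the 22 tested members, Ctnnb1, Tcf7l2, Rspo3 and Dkk3 have the brightest rows, and most Wnt ligand and secreted inhibitor rows are dark in both groups.

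Levels were compared between genes as FPKM, which divide the reads of a gene by its merged exon length and by the library's reads on genes with a symbol. In qHSCs Rspo3 had the highest FPKM of the members, 59.96 ± 17.7 (SD, n = 5), above Ctnnb1 at 24.8 ± 1.56 and Tcf7l2 at 22.8 ± 2.05. The FPKM of Ctnnb1 and Tcf7l2 overlapped among these libraries, whereas those of Rspo3 lay above both. Dkk3 at 13.9 ± 8.30 FPKM and Fzd1 at 5.79 ± 0.700 FPKM came next, with overlapping ranges, and the remaining members were under 3 FPKM on average. In hypHSCs the order of FPKM was Ctnnb1 at 34.7 ± 1.49, Tcf7l2 at 17.9 ± 4.26, Dkk3 at 4.48 ± 3.13, Fzd1 at 3.59 ± 1.46 and Fzd7 at 1.77 ± 0.335. Only the first 2 of these 5 were separated from their lower neighbour by non-overlapping ranges. Rspo3 stood sixth there, at 0.979 ± 0.797 FPKM.

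The stretch before the start site is given for 4 members that show the range of responses: Wnt4 and Axin2, which fell, Fzd7, which rose, and Fzd1, the most abundant Frizzled gene, which was not called. Each is the 250 bases before the start in the RefSeq promoter table (GRCm38.p6), read 5′ to 3′ on the strand of the gene. Capitals mark a single form of the core of the TCF/LEF motif, CTTTGA or its reverse complement TCAAAG. Other forms of the motif were not searched for and stay in lower case. The stretches are chr4:137277385-137277634 on the plus strand for Wnt4, chr11:108920099-108920348 on the plus strand for Axin2, chr1:59481897-59482146 on the plus strand for Fzd7 and chr5:4758217-4758466 on the minus strand for Fzd1.
Wnt4: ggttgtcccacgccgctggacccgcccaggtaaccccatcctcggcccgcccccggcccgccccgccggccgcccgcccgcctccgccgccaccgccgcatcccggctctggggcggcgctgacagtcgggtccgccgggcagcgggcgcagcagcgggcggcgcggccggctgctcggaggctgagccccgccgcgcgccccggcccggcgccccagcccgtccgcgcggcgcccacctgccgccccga
Axin2: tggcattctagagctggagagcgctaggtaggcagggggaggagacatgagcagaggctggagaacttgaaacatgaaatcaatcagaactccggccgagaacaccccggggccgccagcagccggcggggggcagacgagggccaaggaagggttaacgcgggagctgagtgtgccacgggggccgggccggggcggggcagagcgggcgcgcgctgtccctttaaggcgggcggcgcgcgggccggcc
Fzd7: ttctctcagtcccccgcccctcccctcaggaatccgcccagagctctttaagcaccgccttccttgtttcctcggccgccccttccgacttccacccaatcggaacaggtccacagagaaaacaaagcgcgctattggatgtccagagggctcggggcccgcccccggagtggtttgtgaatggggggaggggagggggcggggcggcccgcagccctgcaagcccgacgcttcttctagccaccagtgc
Fzd1: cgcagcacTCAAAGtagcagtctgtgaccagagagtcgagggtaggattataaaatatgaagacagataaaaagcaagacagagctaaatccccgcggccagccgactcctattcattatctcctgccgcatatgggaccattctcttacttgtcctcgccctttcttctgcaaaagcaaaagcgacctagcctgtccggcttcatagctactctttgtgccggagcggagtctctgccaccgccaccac
This form of the motif was in 6 of the 49 stretches of the 39 members with an entry (12.2%), beside 13.8% of all 32851 stretches of this length. It was in 0 of the 7 stretches of the 6 DEGs with an entry, which are Axin2, Fzd4, Fzd7, Tcf7, Tcf7l1 and Wnt4, and the members that had it were Dkk1, Fzd1, Lef1, Ror1, Wnt11 and Wnt5b. The G and C bases made up 85.2% of the Wnt4 stretch, 69.2% of that of Axin2, 65.2% of that of Fzd7 and 51.2% of that of Fzd1, beside a median of 52.4% over all stretches. A match of these letters is a description of the window and no evidence of binding.

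Among the Wnt ligands, Wnt4 was the member with the highest level in qHSCs and was lower in hypHSCs. Wnt4 (chr4:137004819-137026812, GRCm39) had 88.7, 89.5, 95.3, 89.9 and 248 normalized counts in qHSC 1 to 5. It had 10.8, 9.32, 2.49, 2.10 and 1.51 in hypHSC 1 to 5, of which the last 3 were at or below 3 reads. Every qHSC library was above every hypHSC library, and qHSC 5 stood well above the other 4. The log2 fold change was -4.47 with a standard error (SE) of 0.60, with a limma adjusted p of 0.000114, and the means differed 23.3-fold. Since Wnt4 passed the filter on low values through the qHSC libraries and hypHSC 1 alone, its being tested already depended on a high qHSC level. As a share of the summed FPKM of all 19 Wnt genes, Wnt4 made up 55.7% to 83.2% in qHSCs and 1.22% to 21.4% in hypHSCs. The hypHSC shares rest on 1 to 9 Wnt4 reads and a summed FPKM of 0.0746 to 0.571, so they are imprecise.

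Wnt5a, a ligand known for signals that do not use beta-catenin, was the other ligand tested, and its normalized counts of 0 to 27.0 in hypHSCs and 2.57 to 22.2 in qHSCs overlapped. Its log2 fold change of -0.09 (SE 0.96) was not called, and its sign turned under several settings. Of the 17 ligands not tested, Wnt1, Wnt3, Wnt3a, Wnt8a, Wnt10b and Wnt16 had no read in any library. The other 11 exceeded 3 reads in at least 1 library, and these were Wnt2, Wnt2b, Wnt5b, Wnt6, Wnt7a, Wnt7b, Wnt8b, Wnt9a, Wnt9b, Wnt10a and Wnt11. Wnt5b had 9.05 to 36.2 normalized counts in qHSCs and 0 to 4.04 in hypHSCs, without overlap. Of its exon bases, 21.8% lie in another annotated gene, which counting without strand does not separate. Wnt7a, Wnt7b and Wnt10a had reads in 2 hypHSC libraries each and in 0 qHSC libraries. These were few: 6 and 18 reads of Wnt7a in hypHSC 1 and 3, 6 and 3 of Wnt7b in hypHSC 1 and 2, and 3 and 15 of Wnt10a in hypHSC 1 and 5. Wnt7b and Wnt10a thus exceeded 3 reads in 1 library each. Wnt2, a ligand made by liver endothelium, had 34.2 normalized counts in hypHSC 2 and at most 18.9 elsewhere.

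Rspo3, the R-spondin of the central vein region, had the largest log2 fold change of the 22 members in the limma fit. Rspo3 (chr10:29328414-29411864, GRCm39) had 8194, 10155, 5604, 5766 and 12298 normalized counts in qHSC 1 to 5. It had 172, 40.4, 59.0, 194 and 457 in hypHSC 1 to 5. The groups were separated by more than their spread, with hypHSC 5 the highest of the hypHSC libraries and hypHSC 2 the lowest. The means were 8403 ± 2876 and 185 ± 166 (SD, n = 5), a 45.5-fold difference, with a log2 fold change of -5.94 (SE 0.57) and an adjusted p of 1.1e-05 by limma. Rspo1, Rspo2 and Rspo4 were not tested. Rspo2 had up to 23.9 normalized counts in 4 qHSC libraries and none in qHSC 5 or in hypHSCs, Rspo1 had 3.11 in hypHSC 2 and 18.2 in hypHSC 5, and Rspo4 had no read.

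The receptors and ubiquitin ligases that read R-spondins were not called or not tested. Lgr4, a receptor of R-spondins, had 215, 185, 122.8, 206 and 249 normalized counts in qHSCs. It had 94.3, 62.1, 34.1, 112 and 573 in hypHSC 1 to 5. Thus 4 hypHSC libraries lay below every qHSC library and hypHSC 5 lay above them all. The log2 fold change was -0.84 (SE 0.63, adjusted p = 0.292), and without hypHSC 5 it was -1.45 with an adjusted p of 0.00905. Znrf3 had 0 to 41.4 normalized counts in hypHSCs and 1.57 to 23.0 in qHSCs, and was not called at 0.98 (SE 1.04) on the log2 scale. Rnf43, which shares its entry with 1110028F11Rik, had at most 51.2 normalized counts, in hypHSC 1, and Lgr5 and Lgr6 had at most 34.2, so these 3 were not tested.

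Of the 7 Frizzled genes tested, 1 was higher, 2 were lower and 4 were not called. Fzd7 was higher in hypHSCs, Fzd4 and Fzd8 were lower, and Fzd1, the most abundant Frizzled gene by FPKM in qHSCs and in 4 of 5 hypHSC libraries, was not called. Fzd1 had 978, 502, 511, 330 and 850 normalized counts in hypHSC 1 to 5. It had 802, 965, 708, 722 and 789 in qHSC 1 to 5, within the hypHSC range. Its log2 fold change was -0.43 (SE 0.29, adjusted p = 0.238), and it was called lower only under scaling on the 3 reference genes, at -1.37.

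Fzd7 (chr1:59521306-59526106, GRCm39) had 402, 434, 384, 588 and 366 normalized counts in hypHSC 1 to 5. It had 175, 217, 146, 92.4 and 133 in qHSC 1 to 5. The lowest hypHSC library was above the highest qHSC library. The means of 435 ± 89.0 and 153 ± 46.6 (SD, n = 5) gave a log2 fold change of 1.54 (SE 0.28) and a limma adjusted p of 0.000878. Under scaling on Hprt, Pgk1 and Actb it kept its direction at 0.60 and was not called (adjusted p = 0.157). Of the exon bases of Fzd7, 12.0% lie in other annotated genes, which counting without strand does not separate.

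Fzd4, which also serves as the receptor of norrin, had 251, 301, 257, 204 and 229 normalized counts in qHSC 1 to 5. In hypHSC 1 to 5 it had 59.3, 109, 34.9, 2.10 and 9.07. No hypHSC library reached the qHSC range, and hypHSC 4 and 5 were the lowest. Fzd4 fell by 3.38 on the log2 scale (SE 0.84, adjusted p = 0.00619). Fzd8 had 117, 199, 196, 63.3 and 131 normalized counts in qHSC 1 to 5. It had 70.1, 8.28, 0, 4.20 and 9.07 in hypHSC 1 to 5. Here hypHSC 1 lay above qHSC 4, so the groups overlapped, and Fzd8 passed the filter through the qHSC libraries and hypHSC 1 alone. Fzd8 fell by 4.03 on the log2 scale (SE 0.94, adjusted p = 0.00448, exact permutation p = 0.0159).

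Fzd3, Fzd5 and Fzd6 were tested and not called, with log2 fold changes of -2.13, -0.27 and -1.56 and group means of at most 57.6 normalized counts. Other annotated genes share 18.1% of the exon bases of Fzd5 and 13.3% of those of Fzd6. Fzd2, Fzd9 and Fzd10 were below the filter, with at most 37.3 normalized counts. The composition of the family, which does not depend on how libraries are scaled, was taken as each gene's share of the summed FPKM of the 10 Frizzled genes. Fzd7 made up 19.3% to 54.5% of it in hypHSCs and 6.66% to 10.1% in qHSCs, without overlap. Fzd4 made up 0.167% to 6.97% in hypHSCs and 11.9% to 13.8% in qHSCs, also without overlap. The share of Fzd1 overlapped, at 42.8% to 71.5% and 62.0% to 72.7%. In hypHSC 4 the share of Fzd7 was larger than that of Fzd1.

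**Figure D2:**
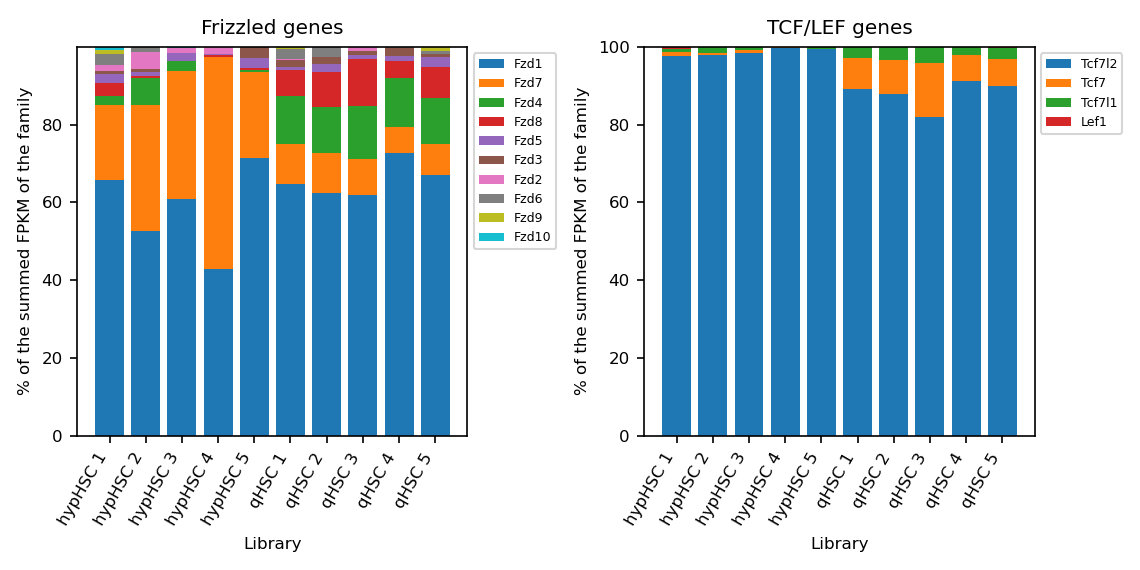
Share of each gene in the summed FPKM of the 10 Frizzled genes (left) and of the 4 TCF/LEF genes (right), in percent, as stacked bars with 1 bar per library. Fzd7 takes 19.3% or more of each hypHSC bar and 10.1% or less of each qHSC bar, and Tcf7l2 takes 97.6% or more and 91.2% or less.

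Of the co-receptors, Lrp5 was lower in hypHSCs and Lrp6 was not called. Lrp5 had 696, 852, 513, 462 and 428 normalized counts in qHSC 1 to 5. It had 159, 222, 190, 50.4 and 33.3 in hypHSC 1 to 5. The groups did not overlap, and hypHSC 4 and 5 were again the lowest. Lrp5 fell by 2.46 on the log2 scale (SE 0.52, adjusted p = 0.00257), and its means differed 4.51-fold. Lrp6 had 147, 242, 244, 93.4 and 42.4 normalized counts in hypHSCs and 167 to 291 in qHSCs, and the log2 fold change was -0.68 (SE 0.47, adjusted p = 0.254). Lrp5 made up 77.9% to 82.8% of the summed FPKM of this pair in qHSCs and 45.8% to 63.0% in hypHSCs. Ror1, a receptor of Wnt5a, had 47.2, 35.2 and 55.7 normalized counts in hypHSC 1, 2 and 3 and 0 in hypHSC 4 and 5. The qHSC libraries had 30.7 to 75.6, so hypHSC 1 to 3 lay within their range, and the log2 fold change of -2.17 (SE 1.23, adjusted p = 0.166) was not called. Ror2 had 21.7 normalized counts in hypHSC 2 and none in the other 9 libraries.

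Dkk3, a divergent member of the Dickkopf family, was the only secreted inhibitor tested. It had 1998, 1792, 1641, 524 and 159 normalized counts in hypHSC 1 to 5. In qHSC 1 to 5 it had 4312, 3375, 5032, 1227 and 1322. The groups overlapped, since hypHSC 1, 2 and 3 lay above qHSC 4 and 5. The log2 fold change of -1.58 (SE 0.71) was not called (limma adjusted p = 0.0853, exact permutation p = 0.0873). The other 9 inhibitors exceeded 3 reads in at least 1 library and stayed under the filter. Dkk2 had 4.99 to 57.7 normalized counts in 4 hypHSC libraries and at most 7.70 in qHSCs, where 2 libraries had none. Notum, a secreted esterase that removes the lipid of Wnt proteins, had 3.41 to 50.7 in qHSCs and at most 4.20 in hypHSCs. Of the exon bases of Notum, 48.7% lie in other annotated genes, which counting without strand does not separate. Sfrp1 reached 88.9 and Wif1 32.3 normalized counts in hypHSC 1, with at most 13.6 elsewhere, and Sfrp4 reached 60.6 there and 49.9 in hypHSC 5. Dkk1, Dkk4, Sfrp2 and Sfrp5 stayed at 16.6 or less.

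Inside the cell, Ctnnb1 and Tcf7l2 were abundant in both groups, while Axin2, Tcf7 and Tcf7l1 were lower in hypHSCs. Ctnnb1, which encodes beta-catenin, had 11881, 11389, 10038, 12031 and 14399 normalized counts in hypHSC 1 to 5. It had 6701, 7051, 6547, 6211 and 6609 in qHSC 1 to 5, all below the hypHSC libraries. Its log2 fold change of 0.84 (SE 0.14, adjusted p = 0.000467) was under the fold limit for a DEG, and under scaling on Hprt, Pgk1 and Actb it was -0.10. Of the exon bases of Ctnnb1, 11.7% lie in other annotated genes, which counting without strand does not separate. Tcf7l2, the most abundant TCF/LEF gene by FPKM, had 4661, 5382, 6019, 9370 and 8586 normalized counts in hypHSC 1 to 5. In qHSC 1 to 5 it had 6596, 6658, 5410, 7314 and 7625, inside the hypHSC range. The log2 fold change was -0.03 (SE 0.21, adjusted p = 0.932).

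Tcf7, the TCF/LEF factor also known from T cells, showed the largest change of the intracellular members. It had 256, 289, 397, 227 and 253 normalized counts in qHSC 1 to 5. It had 24.3, 8.28, 20.8, 12.6 and 0 in hypHSC 1 to 5. All 5 hypHSC libraries were low, hypHSC 5 had no read, and the groups did not overlap. Tcf7 fell by 4.91 on the log2 scale (SE 0.79, adjusted p = 0.000395), and the means differed 21.6-fold. Tcf7l1, a factor known mainly as a repressor, had 116, 141, 155, 95.0 and 138 normalized counts in qHSCs. It had 20.2, 48.7, 23.3, 3.15 and 31.8 in hypHSC 1 to 5, without overlap, and fell by 2.65 (SE 0.61, adjusted p = 0.00421). Lef1 was under the filter, with at most 24.3 normalized counts. Tcf7l2 made up 97.6% to 99.6% of the summed FPKM of the 4 TCF/LEF genes in hypHSCs and 81.9% to 91.2% in qHSCs.

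Axin2, a feedback inhibitor and a widely used beta-catenin target, had 138, 124, 151, 71.9 and 64.4 normalized counts in qHSC 1 to 5. It had 28.3, 41.4, 13.3, 28.3 and 0 in hypHSC 1 to 5. The groups did not overlap, with qHSC 4 and 5 at the low end of qHSCs. Axin2 fell by 2.91 on the log2 scale (SE 0.92, adjusted p = 0.0220), and without qHSC 3 the adjusted p was 0.0509. Axin1, the scaffold of the destruction complex, had 198 to 377 normalized counts in hypHSCs against 267 to 361 in qHSCs, and its log2 fold change of -0.10 (SE 0.23) was not called. Axin2 made up 20.3% to 36.7% of the summed FPKM of both Axin genes in qHSCs and 0% to 15.0% in hypHSCs.

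**Figure D3:**
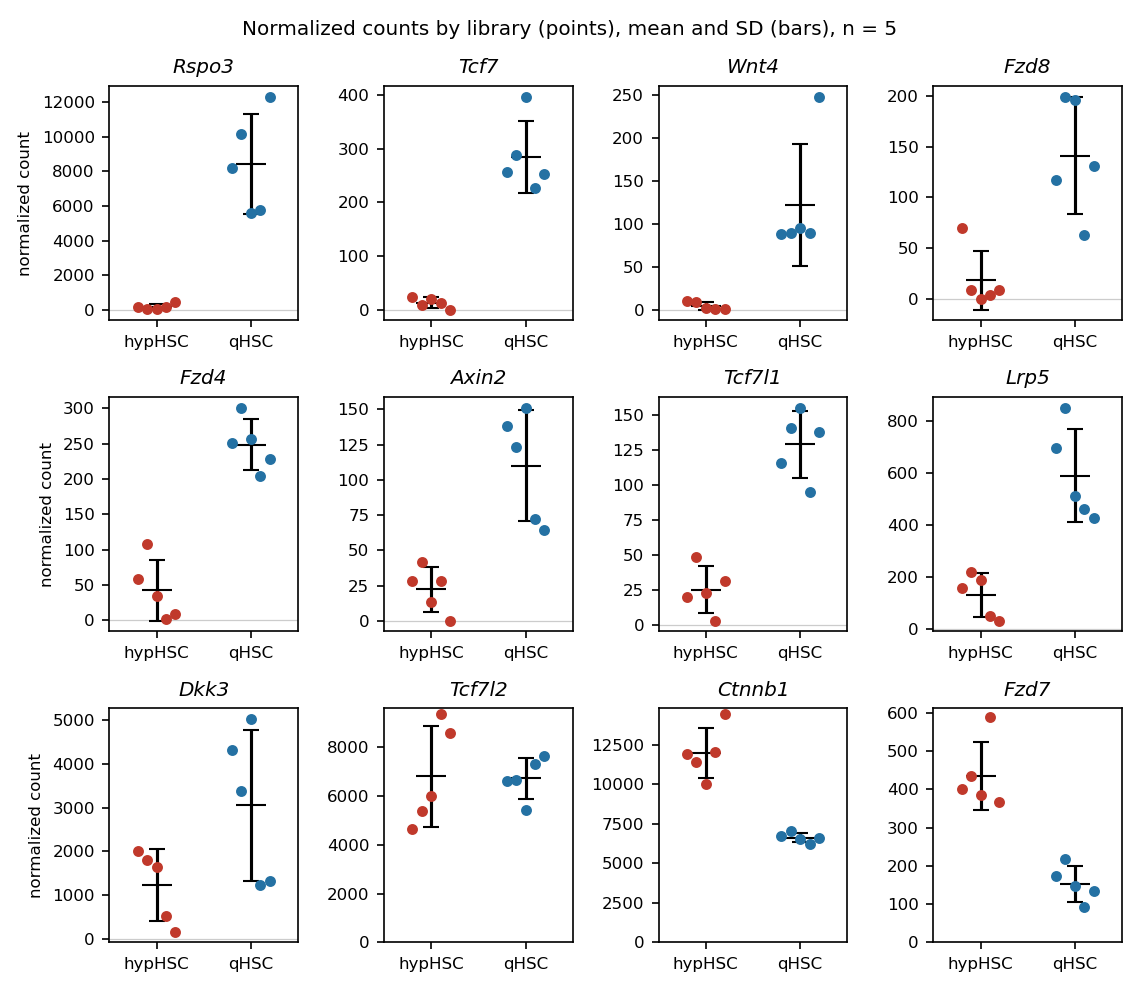
Normalized counts of the 9 DEGs and of Dkk3, Tcf7l2 and Ctnnb1 in each library (points), with the mean and SD of 5 libraries (bars), on linear axes. Fzd7 and Ctnnb1 lie higher in every hypHSC library, a direction that turned to -0.10 on the log2 scale for Ctnnb1 under scaling on Hprt, Pgk1 and Actb, and Fzd8, Dkk3 and Tcf7l2 overlap between the groups.

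The members were also set against the stellate markers of the same library, as normalized counts per 1000 normalized counts of the 15 marker sum. Ecm1, with a mean of 753807 normalized counts in qHSCs and 6521 in hypHSCs, made up most of the sum in qHSCs. Log2 fold changes of the 15 markers ran from -2.87 (Pdgfrb) to -8.39 (Colec10), with -7.26 for Ecm1. Ratios to single markers were not computed and could differ. The sum was much lower in hypHSCs, so that most genes stood higher on this measure: over all genes tested, 84.3% were higher and 0.417% lower in hypHSCs without overlap. Of the 22 members 11 were higher, among them the uncalled Lgr4, Fzd1, Axin1, Ctnnb1 and Tcf7l2, and 0 were lower. Of the 8 lower DEGs, 6 overlapped between the groups, and Lrp5 and Tcf7l1 were above the qHSC range in every hypHSC library. Rspo3 had 8.49, 2.31, 3.88, 18.7 and 67.9 per 1000 in hypHSC 1 to 5 and 5.03 to 9.46 in qHSCs, so that hypHSC 1 lay within the qHSC range, hypHSC 2 and 3 below it and hypHSC 4 and 5 above it. Tcf7 had 0 to 1.37 per 1000 in hypHSCs and 0.195 to 0.557 in qHSCs. Dkk3 had 23.6 to 107.8 and 1.02 to 7.06, and Fzd7 had 19.8 to 56.6 and 0.0806 to 0.206, both without overlap. What share of each member's reads came from which cell type was not tested.

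**Figure D4:**
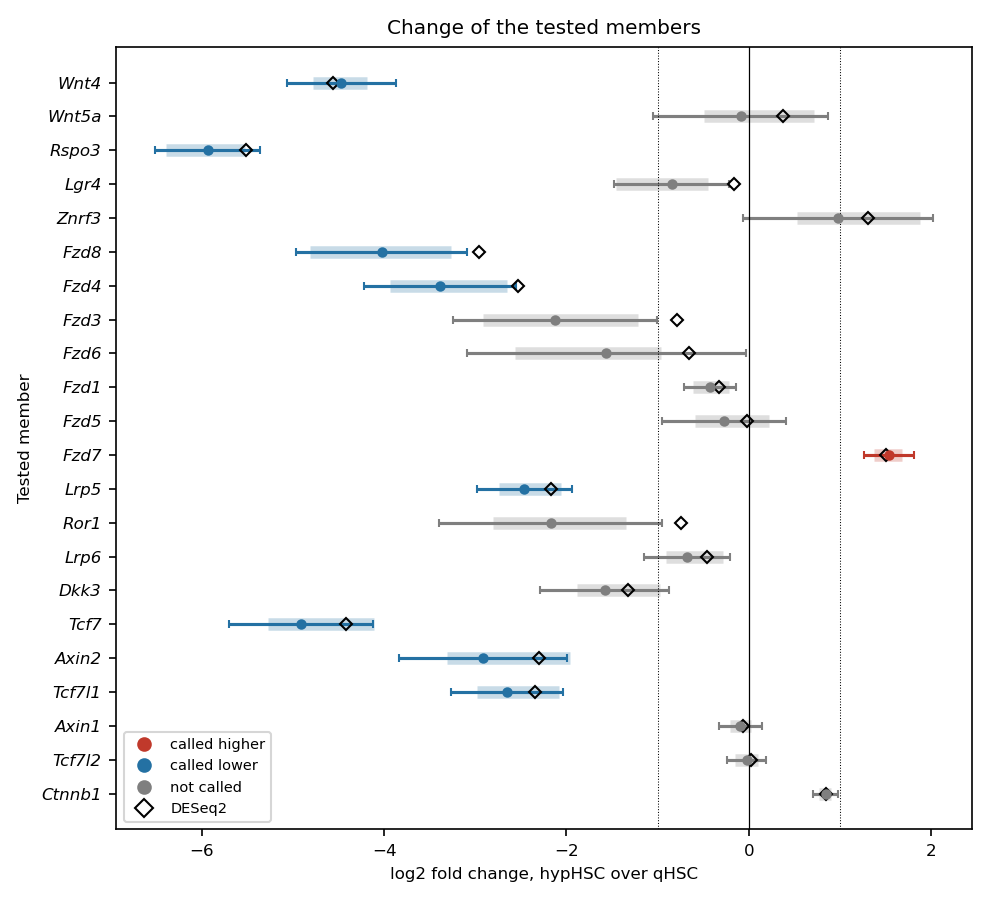
Log2 fold change of hypHSCs over qHSCs for the 22 tested members, by role, from limma on log2(normalized count + 1) with its SE (points and thin bars), the range when each library was left out in turn (wide pale bars) and DESeq2 on the recovered reads (open diamonds). Red marks the DEG that was higher, blue the 8 that were lower and grey those not called, and dotted lines stand at the fold limit of 1.

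The 9 DEGs were called again without hypHSC 4 and 5, the libraries with the lowest stellate sums, and with DESeq2 and edgeR on the recovered reads. Libraries hypHSC 1, 2 and 3 still had stellate sums of 15226 to 20318, far below the 712471 to 1338510 of qHSCs. The fit without hypHSC 4 and 5 was therefore no test of stellate content. The labels do not name the mouse behind each library, so n counts preparations and the p-values measure the spread between preparations. For each DEG other than Fzd8 the exact permutation p was 0.00794, the smallest that 5 libraries against 5 can give.

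Other genes of the pathway, which are no members by the symbol rule, were read by list. Of 137 listed genes 114 were tested, of which 19 were higher, 35 lower and 60 not called, so that 47.4% were DEGs with a median log2 fold change of -0.58. Over all genes tested, 39.5% were DEGs, 17.8% higher and 21.7% lower, with a median of -0.20, and the counts of each list are a description beside these shares. Scaled on Hprt, Pgk1 and Actb, 11 of the listed genes were higher and 60 lower.

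Of the 6 genes of Wnt secretion, 2 were higher and 2 lower. Wls, which carries Wnt proteins to the cell surface, averaged 986 normalized counts in hypHSCs against 4324 in qHSCs and fell by 2.24 on the log2 scale (adjusted p = 0.000148). Porcn, the acyltransferase that attaches the lipid, had a log2 fold change of -3.78. Snx3, which serves protein traffic in general, rose by 1.22, and Vps35 of the retromer was not called at 0.10. Tmed5, named after its values were seen, rose by 1.53. Of 15 other receptors and surface modulators tested, 1 was higher and 8 were lower. Reck, a co-activator of Wnt7 signals, had a log2 fold change of -5.21, and the glypican Gpc4, a proteoglycan core of the cell surface, had -4.49. The receptor kinase Ryk, which binds Wnt proteins, fell by 3.92. Cthrc1, a secreted collagen triple helix protein and the only gene of the list that was higher, was named after its values were seen and rose by 3.91, from 31.0 to 264 normalized counts.

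Of 24 Dishevelled and destruction complex genes, 3 were higher and 4 lower. Apc2 fell by 4.53 and Ccdc88c rose by 2.88 on the log2 scale, and the kinase Csnk1a1 and the ligase Rnf146, the most abundant of the list, were not called at -0.69 and -0.76. Of 9 intracellular feedback inhibitors, 2 were higher and 4 lower. Nkd1, which binds Dishevelled, fell by 5.06, from 454 to 15.9 normalized counts, and Cxxc4 had no read in hypHSCs and a mean of 24.8 normalized counts in qHSCs. Cby1, which binds beta-catenin, fell by 1.54 and Tmem88 rose by 1.30. Of 20 nuclear cofactors 1 was higher and 5 were lower, with Hic1 at -4.06 and Pygo1 at -3.67, and the abundant cofactors Ctbp1 and Tle5 were not called at -0.65 and 0.25.

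Of 25 genes of planar polarity and other signals without beta-catenin, 4 were higher and 7 lower. Prickle2 fell by 5.50 on the log2 scale, Nfatc2 had a mean of 85.7 normalized counts in hypHSCs and 0.786 in qHSCs, Rac1 rose by 1.25 and Rhoa was not called at 0.54. Of 16 genes known as beta-catenin targets, 6 were higher and 6 lower, with a median of -0.18. The lower ones were Nkd1, the Wnt-induced matricellular gene Ccn4, Bmp4 (from 1473 to 49.2 normalized counts), Bambi, Twist1 and Msx1. The higher ones were Id2 (from 4938 to 47383 normalized counts), Birc5, which serves cell division, the adhesion receptor Cd44, Glul, Ccn5 and Fosl1, and Axin2, a member, was lower. Targets of this list respond to other signals too, and which of these genes depended on beta-catenin was not tested.

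**Figure D5:**
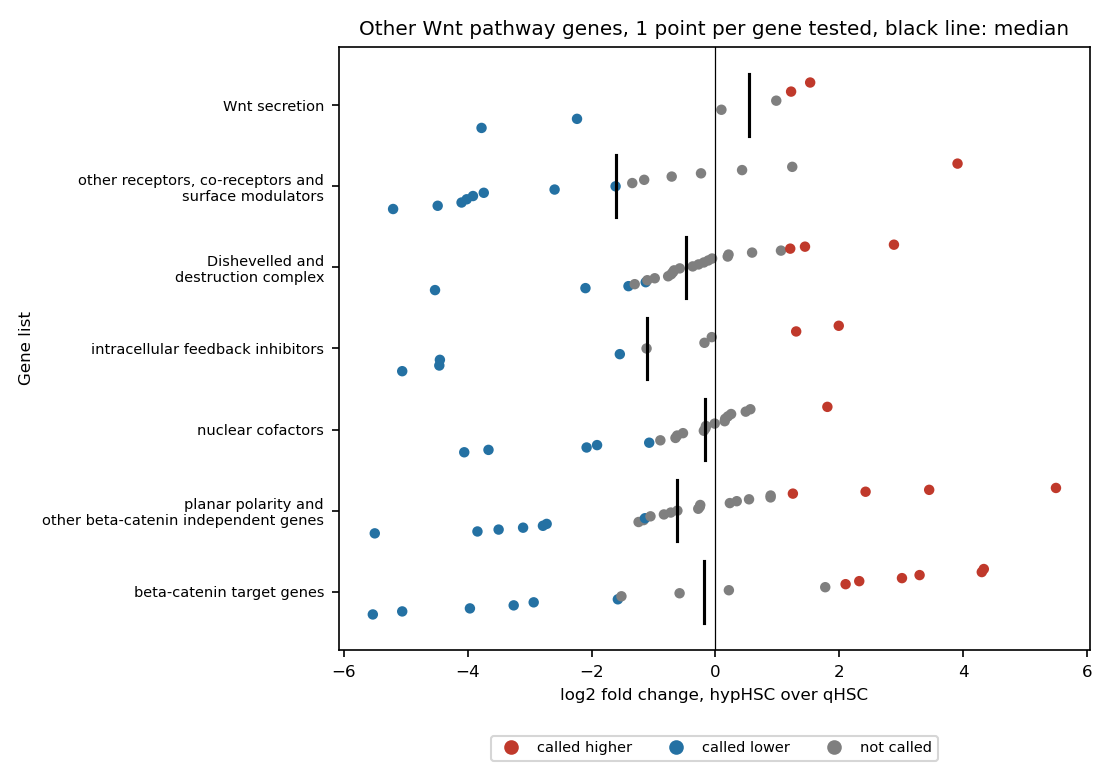
Log2 fold change of hypHSCs over qHSCs for the other pathway genes tested, 1 point per gene, by list, with the median of each list as a black line. Red and blue points are DEGs, and the medians run from -1.61 for the other receptors and surface modulators to 0.54 for Wnt secretion.

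Markers of the other cell types of the liver were read beside the members. Of 11 stellate activation and myofibroblast markers tested 2 were higher and 5 lower, with sums of 18535 to 63722 normalized counts in hypHSCs and 42900 to 77273 in qHSCs. Endothelial markers were higher for 4 and lower for 5 of 14, with sums of 12006 to 16149 and 23511 to 43575. Eng alone had 194 to 2042 normalized counts in hypHSCs and 18108 to 36372 in qHSCs, so the order of these sums rested on that gene. Hepatocyte markers were higher for 0 and lower for 1 of 11, with sums of 11681 to 117356 and 23377 to 80562. All 6 cholangiocyte markers tested were higher, and without Spp1, which is also on the macrophage list, the list summed to 821 to 7154 in hypHSCs and 6.29 to 58.8 in qHSCs. Markers of T and NK cells were higher for 2 of 5, Il7r and Ccl5, and summed to 71.4 to 645 and 30.7 to 322 without that pair. B cell markers were higher for 2 of 3, with sums of 463 to 1484 and 6.81 to 164, and Pax5 was at 0 throughout. Portal fibroblast and mesothelial markers were higher for 4 and lower for 0 of 7, with sums of 1016 to 5956 and 472 to 786. Krt8 alone had 540 to 3381 normalized counts in hypHSCs and 23.9 to 159 in qHSCs, the largest part of each hypHSC sum. Sums without Krt8 were not computed. Wt1, Eln and Entpd2 were not called, at log2 fold changes of 0.53, -0.68 and -1.78. Their part in the members' changes was not tested.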

How the data were processed

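RNA sequencing of 5 hypHSC and 5 qHSC libraries was analysed from a single table. The authors mapped reads to mm39 with STAR, counted them per gene with featureCounts (Subread 1.5.0) without regard to strand, and divided by DESeq2 size factors, so the deposited unit is a signal, the normalized count. Each column multiplied by its size factor (0.661 to 1.33) gave whole reads within 0.1 for 100% of values, and 3 reads, the floor of detection, equal 2.25 to 4.54 normalized counts. The floor covers counting error only.

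Entries that carry a symbol and reach 10 normalized counts in 5 or more libraries were compared as log2(normalized count + 1) in limma 3.58.1 (R 4.3.3, eBayes with trend), with Benjamini-Hochberg adjustment over 14630 genes. For low genes with libraries at or near 0, this scale can shift the fold change either way. The log2 fold change of Fzd8 was -4.03 in limma and -2.96 in DESeq2, that of Fzd3 was -2.13 and -0.79, and that of Ror1 was -2.17 and -0.75. Wnt4, at -4.47 and -4.56, went slightly the other way. Exact 2-sided permutation tests used all 252 arrangements. DESeq2 1.42.0 and edgeR 4.0.16 were run on the recovered reads, and scripts were tested on simulated data. FPKM used merged GENCODE exons on GRCm39, where the positions of all 60 members overlapped the gene of that name. The members and lists were chosen with earlier results of these data known. Library values are given for DEGs with a group mean of at least 100 and for the highest member of each role, and the other lists name their largest changes and highest levels. The ratio to the stellate markers, the family shares and the fit without hypHSC 4 and 5 were added after seeing the data. Alternatives were 2 pseudocounts, 2 filters, 4 scalings, a replicate block, 12 diet weeks only, each library left out, all entries and adjusted p alone.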

Additional observations from a re-analysis of the deposited data

Results flagged for a closer look

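In 44 groups of 5 libraries, the highest or lowest value of each tested member was compared with its nearest neighbour as a share of the group's range, both on the log2(normalized count + 1) scale, and 2 exceeded Dixon's critical value of 0.71. Chance alone passes that value in about 5% of groups, so 2 is no more than chance would give. Wnt4 had 248 normalized counts in qHSC 5 and 88.7 to 95.3 in the other 4 qHSC libraries, a gap of 0.931 of the range on the log2 scale. Axin2 had 0 normalized counts in hypHSC 5 and 13.3 to 41.4 in the other 4 hypHSC libraries, a gap of 0.71 of the range on the log2 scale. Both genes were called lower without the library concerned.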

How the results depend on the processing

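The 9 DEGs among the members were called again with pseudocounts of 0.5 and 10, scaling to the same total, upper quartile or TMM factors, DESeq2, edgeR, the replicate block, hypHSCs at 12 diet weeks only, all entries, and hypHSC 1, 2 and 3 only. Of 212 values of these genes 210 kept direction and call. Scaling to the same total moved the median of all genes by -0.35 and to the upper quartile by 0.11 on the log2 scale. Scaled on Hprt, Pgk1 and Actb, members were 0 higher and 14 lower, other pathway genes 11 and 60, and all genes 1472 and 6989. Fzd7 was lost there, Axin1, Dkk3, Fzd1, Fzd3, Lrp6 and Ror1 were gained, and Ctnnb1 turned to -0.10. All entries gave 3911 genes higher and 5380 lower, with more entries tested. A mean of at least 100 normalized counts left 4 members lower, since it drops Axin2, Fzd8, Tcf7l1 and Wnt4. Members higher were 2 with adjusted p alone, which adds Ctnnb1, and 2 with hypHSC 1, 2 and 3 only, which adds Znrf3 at 2.13. That setting also called Fzd3 (-1.97) and Lgr4 (-1.68) lower. With no filter Notum, Rspo2 and Wnt5b were also called lower.

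No called member reversed. Wnt5a turned to 0.12 with a pseudocount of 10, 0.37 with DESeq2, 0.43 with edgeR, 0.62 with hypHSC 1, 2 and 3 only, and ran from -0.49 to 0.71 when each library was left out. Fzd5 turned to 0.052 with edgeR, 0.036 with hypHSC 1, 2 and 3 only, and ran from -0.60 to 0.22. Ror1 turned to 0.038 with hypHSC 1, 2 and 3 only and was called at -3.55 with 12 diet weeks only, as was Dkk3 at -2.33. Axin1 turned to 0.014 with the upper quartile, 0.10 with hypHSC 1, 2 and 3 only, and ran from -0.21 to 0.025. Tcf7l2 turned to 0.085 with the upper quartile, 0.012 with TMM, 0.018 with DESeq2, 0.091 with edgeR, 0.23 with 12 diet weeks only, and ran from -0.15 to 0.10. The cause of each was not tested. When each library was left out, 8 of the 9 DEGs were called in all 10 fits, Axin2 was lost without qHSC 3, and Fzd3 (-2.92) and Lgr4 (-1.45) were gained without hypHSC 5.

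With the replicate block Dkk3 was called lower (-1.58, adjusted p = 0.0053) and no other member changed its call. The numbers did not pair the samples: deviations of same-numbered libraries correlated at 0.00815 to 0.129, over 0.1 in 1 of 5 pairs, and 1 library correlated best with its own number.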

Other observations

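Within hypHSCs, the members were read by weeks of diet, with 2 libraries at 13 weeks against 3 at 12 weeks, so no test was run, and age differs with the weeks. Dkk3 had 1998 and 1792 normalized counts at 13 weeks and 1641, 524 and 159 at 12 weeks. Tcf7l2 had 4661 and 5382 at 13 weeks and 6019, 9370 and 8586 at 12 weeks. Fzd4 had 59.3 and 109 at 13 weeks and 34.9, 2.10 and 9.07 at 12 weeks. Of the 22 members tested, 6 did not overlap between the weeks (27.3%, beside 21.9% of all genes tested). Dkk3, Fzd4, Wnt4, Fzd6 and Znrf3 were higher at 13 weeks and Tcf7l2 was lower. Wnt4 had 10.8 and 9.32 against 2.49, 2.10 and 1.51, Fzd6 had 67.4 and 19.7 against 0 in all 3, and Znrf3 had 22.9 and 41.4 against 19.1, 12.6 and 0. The stellate marker sum, 20318 and 17469 against 15226, 10380 and 6729, did not overlap either.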
